A study of Mus musculus with 4 samples.

Results

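Microglia, the resident macrophages of the spinal cord, read nucleotides that leak from damaged cells through a small set of surface proteins. The 8 genes described here code for such proteins or for surface proteins grouped with them, and are P2ry12, P2ry13, P2ry6, P2rx4, P2rx7, Entpd1, Adora3 and Gpr34. They were chosen by symbol, each symbol matched 1 row, and they are 8 of the 31053 genes in the count tables. The data are 4 libraries of CD45+ cells from the spinal cord of C57BL/6 mice of both sexes, aged 3 months, sequenced on the 10× Chromium platform. The sham library (standard dissociation) and the shamActD library (with actinomycin D, a transcription inhibitor, added during dissociation) came from uninjured cords. The labels call these cords healthy, and the study's methods describe sham mice as having surgery (laminectomy) without contusion. The 3dpi and 14dpi libraries came from cords taken 3 and 14 days after a contusion at T10, and both were dissociated with ActD. The study's methods give a total number of mice over the control and injured groups, and how many were pooled in each library is not given in the sources used here. Each group is 1 library, so no difference between groups could be set against a spread between animals, no test was made, and all intervals are 95% counting intervals.

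ATP, ADP and UDP act as danger signals around injured tissue. P2Y12 and P2Y13, the products of P2ry12 and P2ry13, are G protein-coupled receptors for ADP, and P2Y12 directs microglial processes towards a lesion. P2Y6 is a receptor for UDP and is known for promoting phagocytosis. P2X4 and P2X7 are ion channels opened by ATP, known in the spinal cord for neuropathic pain and for release of interleukin-1β, respectively. CD39, coded by Entpd1, breaks ATP and ADP down to AMP, Adora3 codes for the adenosine A3 receptor, and Gpr34 codes for a receptor for lysophosphatidylserine that is close in sequence to the P2Y12 group.

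In the mm10 build, with GENCODE M21, P2ry13 (chr3:59207892-59210882, minus strand) and P2ry12 (chr3:59216272-59262871, minus strand) lay next to each other with 5389 bases between them. Both sat inside Med12l, a gene on the opposite strand, and Med12l itself was at 6.72 to 43.5 CPM in microglia (CPM, the UMIs of a gene scaled to a common total per class and library, so that all genes sum to 1e+06). P2rx7 (chr5:122643911-122691432, plus strand) and P2rx4 (chr5:122707544-122729738, plus strand) were also neighbours, 16111 bases apart. P2ry6 lay at chr7:100937630-100974649 on the minus strand. Entpd1 lay at chr19:40612366-40741602, Adora3 at chr3:105870858-105908926 and Gpr34 at chrX:13632089-13640858, all on the plus strand. Adora3 shared its strand and part of its span with Tmigd3, which had at most 0.691 CPM in microglia, and Gpr34 lay inside Cask on the opposite strand, which had 6.39 to 48.5 CPM. All 8 are protein-coding genes whose coding transcripts have from 2 to 13 exons.

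The promoters of the neighbouring pairs are shown because P2ry12 and P2ry13 were lower together after injury while P2rx4 and P2rx7 went different ways at 14dpi. Each stretch is the 250 bases before a RefSeq start site (GRCm38.p6), read 5′ to 3′ on the gene's strand. Capitals mark matches to the PU.1 core GAGGAAG, to the AP-1 motif TGANTCA or to the hypoxia core ACGTG, on either strand.
P2ry12 (chr3:59262986-59263235): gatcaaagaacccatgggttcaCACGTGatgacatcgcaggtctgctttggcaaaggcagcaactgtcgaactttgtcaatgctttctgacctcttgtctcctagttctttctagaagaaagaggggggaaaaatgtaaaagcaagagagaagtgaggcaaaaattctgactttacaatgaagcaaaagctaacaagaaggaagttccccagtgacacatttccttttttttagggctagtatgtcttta
P2ry13 (chr3:59210883-59211132): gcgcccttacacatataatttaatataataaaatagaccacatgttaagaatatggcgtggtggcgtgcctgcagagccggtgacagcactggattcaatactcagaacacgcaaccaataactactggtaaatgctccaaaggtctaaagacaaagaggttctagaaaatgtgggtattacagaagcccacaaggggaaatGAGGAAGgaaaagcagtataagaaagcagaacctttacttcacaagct
P2rx4 (chr5:122707294-122707543): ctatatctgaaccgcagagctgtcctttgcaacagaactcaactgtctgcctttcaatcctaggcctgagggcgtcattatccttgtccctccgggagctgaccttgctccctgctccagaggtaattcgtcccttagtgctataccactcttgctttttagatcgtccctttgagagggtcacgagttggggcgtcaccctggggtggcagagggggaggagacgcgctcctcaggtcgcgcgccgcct
P2rx7 (chr5:122643677-122643926): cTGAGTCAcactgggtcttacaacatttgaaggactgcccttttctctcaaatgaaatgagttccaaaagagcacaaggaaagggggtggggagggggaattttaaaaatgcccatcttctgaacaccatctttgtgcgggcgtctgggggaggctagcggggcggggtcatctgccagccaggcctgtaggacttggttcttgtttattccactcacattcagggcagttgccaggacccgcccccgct
Promoters were found for 6 of the 8 members, in 8 windows, since P2rx7 and Entpd1 have 2 start sites each. PU.1, the myeloid transcription factor, had its core in 3 of these 8 windows, against 10.6% of 32851 promoters of the same length, and they belonged to P2ry13, Entpd1 and Adora3. The AP-1 letters stood in 2 windows (6.75% of all promoters), that of Adora3 and the P2rx7 window shown. The other P2rx7 window (chr5:122650133-122650382), not shown, held none of the motifs. The hypoxia core stood in 1 window (16.6% of all promoters), that of P2ry12, where its matches on both strands overlap in a single CACGTG. P2rx4 held none of these letters in its window. A match is a description of the letters and not of a bound site.

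Microglia were called without using the 8 genes. Cells of each library were clustered apart from the other libraries, with the members and the other purinergic genes left out, and a cluster was named from Tmem119, Sall1, Olfml3, Sparc, Slc2a5 and Siglech, here called the gate genes. This gave 2786 microglia among 5099 cells in sham, 1549 among 2139 in shamActD, 742 among 8342 at 3dpi and 4377 among 9208 at 14dpi. The median UMI count of these cells was 7545, 9379, 21988 and 10781, so microglia at 3dpi were the deepest by a factor of over 2. All 6 gate genes were detected in the microglia of every library, and their summed level was 6596 CPM in sham, 8954 in shamActD, 2110 at 3dpi and 3314 at 14dpi. Markers of macrophages moved with injury in these same cells. The 7 markers of injury macrophages summed to 20.3 CPM in sham, 8.73 in shamActD, 2245 at 3dpi and 697 at 14dpi, with Arg1 at 0 in sham and Gpnmb and Fabp4 at 0 in shamActD. The 7 markers of border macrophages, the macrophages of the meninges and vessels, summed to 8.12, 11.1, 699 and 179 CPM, and the part of either list in the results below was not tested. Libraries shared between 3 and 36 cell barcodes per pair, at most 0.697% of the smaller library.

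Among the 8 members, P2ry12 had the largest ratio between shamActD and either injured library. Its level in microglia was 1166 CPM in sham, 2351 in shamActD, 144 at 3dpi and 336 at 14dpi. The 4 values did not overlap in their intervals, and both injured libraries lay under both uninjured ones. Against shamActD, the control that shares the dissociation, P2ry12 was 16.3-fold lower at 3dpi (log2 ratio -4.03, interval -4.09 to -3.97) and 6.99-fold lower at 14dpi (-2.80, -2.83 to -2.78). In UMIs per cell, which are not scaled for depth, it went from 24.2 in shamActD to 3.53 at 3dpi and 4 at 14dpi.

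**Figure D1:**
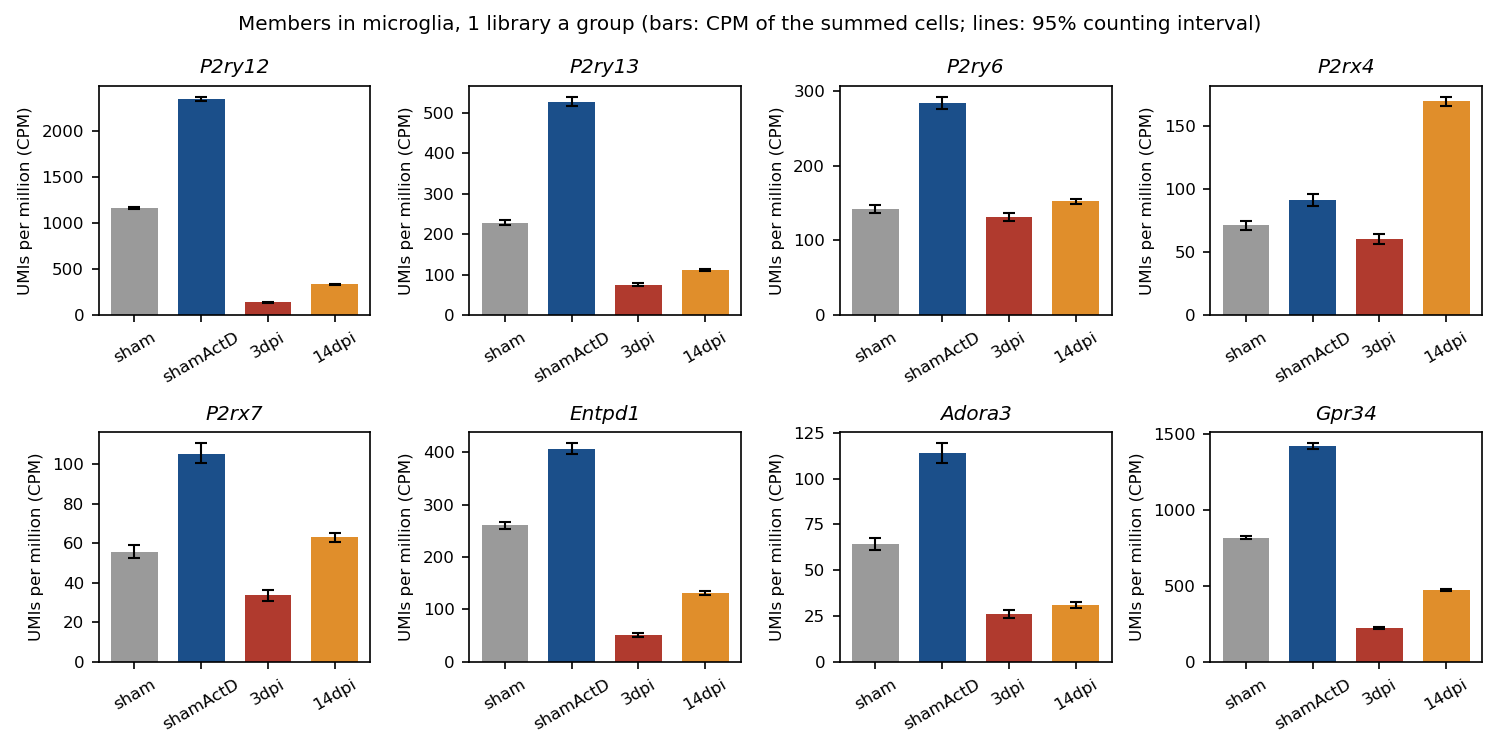
Level of each of the 8 genes in microglia of the 4 libraries, in CPM (linear axis from 0, own scale per gene), with bars for the summed cells of 1 library and lines for the 95% counting interval. ShamActD holds the highest bar for 7 genes, and P2rx4 has its highest bar, 169 CPM, at 14dpi.

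The ratios of all genes need a common reference. The median log2 ratio over all genes tested, meaning genes whose UMIs in both libraries together reached 200, was -0.53 for 3dpi over shamActD (9098 genes), -0.53 for 14dpi over shamActD (9805 genes) and -0.54 for sham over shamActD (8949 genes), but 0.04 for 14dpi over 3dpi (9850 genes). Most ratios of the members to shamActD are therefore also given relative to that median. Those of the other purinergic genes, given further below, are not. A gene was counted as lower or higher if its CPM ratio was at least 2-fold and its counting interval lay on the same side. These counts compare 2 libraries and not the conditions.

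At 3dpi, 7 of the 8 members were at least 2-fold lower than in shamActD and 0 were at least 2-fold higher. Of all genes tested, 32.0% were lower by this rule and 11.4% were higher. The median log2 ratio of the members was -2.40, beside -0.53 over all genes. The gate genes, whose products do not sense nucleotides, were all lower too, with a median of -2.61. The count of 7 members depended on the processing. Scaled by the trimmed mean of M values (TMM), P2ry6 was at -0.63 and short of 2-fold. With each cell called on its own by 3 gate genes, P2rx7 was at -0.81 and short of it too. The shares over all genes were not computed for these settings.

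Among the ADP receptors, P2ry13 stood at 229 CPM in sham, 527 in shamActD, 75.8 at 3dpi and 111 at 14dpi. As for P2ry12, both injured libraries were under both uninjured libraries. The log2 ratio to shamActD was -2.80 (-2.88 to -2.72) at 3dpi and -2.25 (-2.30 to -2.20) at 14dpi, or -2.26 and -1.72 relative to the median gene. For P2ry12 the ratios relative to the median gene were -3.49 and -2.28.

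Gpr34 had 816 CPM in sham, 1416 in shamActD, 223 at 3dpi and 470.3 at 14dpi. It was 6.34-fold lower at 3dpi (log2 ratio -2.67, -2.71 to -2.62) and 3.01-fold lower at 14dpi (-1.59, -1.62 to -1.56). Relative to the median gene these were -2.13 and -1.06. The UDP receptor gene P2ry6 moved less than these receptors. It had 142 CPM in sham, 283 in shamActD, 132 at 3dpi and 152 at 14dpi, so that both injured libraries lay near the standard sham. Its log2 ratio to shamActD was -1.10 (-1.18 to -1.03) at 3dpi and -0.90 (-0.95 to -0.84) at 14dpi, and -0.57 and -0.37 relative to the median gene. In UMIs per cell it was higher at 3dpi (3.23) than in shamActD (2.91), so the direction for P2ry6 depended on scaling for depth.

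The ATP-gated channels went apart. P2rx7 had 55.7 CPM in sham, 105 in shamActD, 33.6 at 3dpi and 62.9 at 14dpi. Its log2 ratio to shamActD was -1.65 (-1.78 to -1.51) at 3dpi and -0.74 (-0.83 to -0.66) at 14dpi, the latter -0.21 relative to the median gene. P2rx4 had 71.1 CPM in sham, 91.5 in shamActD, 60.3 at 3dpi and 169 at 14dpi. The 14dpi library held the highest value and the 3dpi library the lowest, with no overlap of intervals. Its log2 ratio to shamActD was -0.60 (-0.71 to -0.49) at 3dpi and 0.89 (0.81 to 0.97) at 14dpi. Relative to the median gene these became -0.07 and 1.41, and with scaling by the trimmed mean of M values (TMM) -0.12 and 1.45, so P2rx4 was past 2-fold at 14dpi by the latter scaling and short of it by total UMIs. In UMIs per cell P2rx4 was higher than in shamActD (0.941) at both times, with 1.48 at 3dpi and 2.01 at 14dpi.

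Downstream of ATP, Entpd1 had 260.4 CPM in sham, 407 in shamActD, 51.1 at 3dpi and 131 at 14dpi. It was 7.96-fold lower than in shamActD at 3dpi (log2 ratio -2.99, -3.09 to -2.89), and its log2 ratio at 14dpi was -1.63 (-1.68 to -1.58). Adora3, the sole adenosine receptor among the members, had 64.2 CPM in sham, 114 in shamActD, 26.1 at 3dpi and 30.9 at 14dpi. Its log2 ratios were -2.13 (-2.27 to -1.98) and -1.88 (-1.98 to -1.78). Relative to the median gene Entpd1 was at -2.46 and -1.10 and Adora3 at -1.59 and -1.35.

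**Figure D2:**
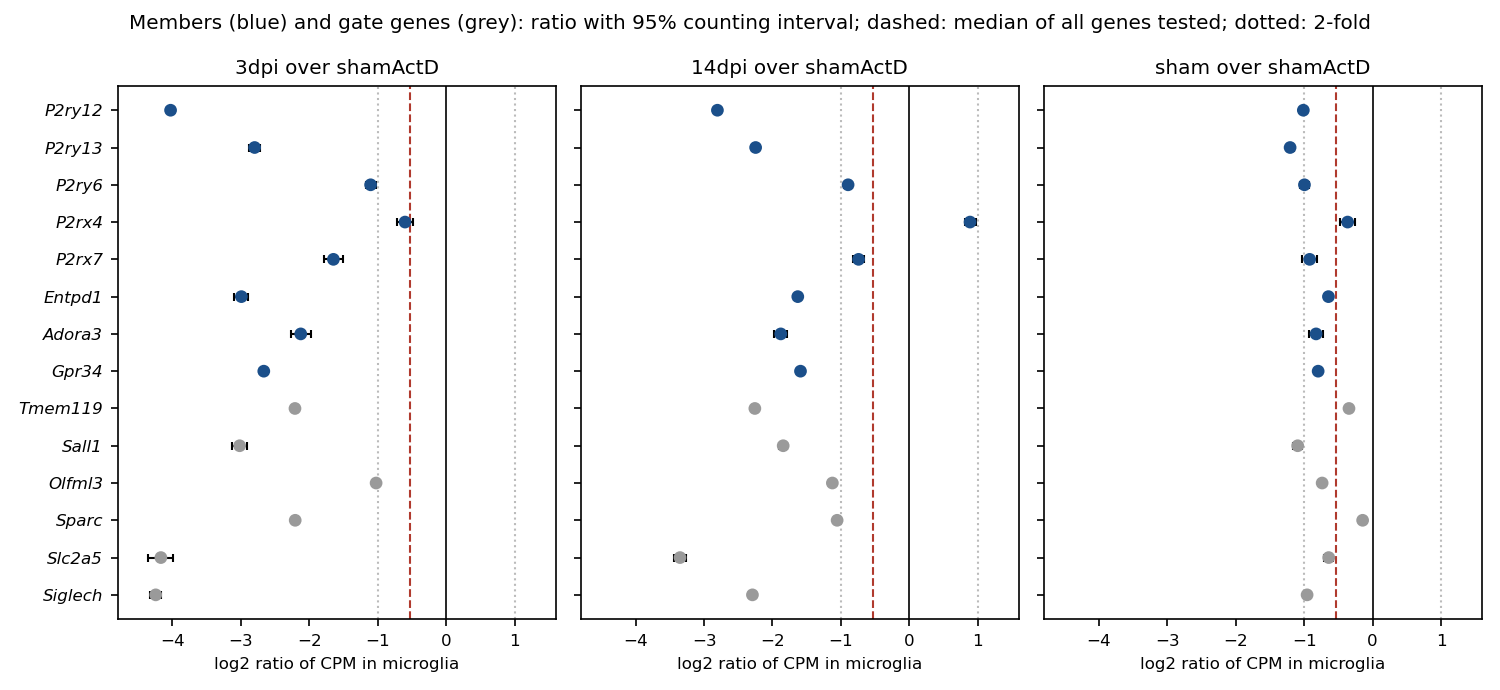
Log2 ratio of CPM in microglia of 3dpi, 14dpi and sham over shamActD for the 8 members (blue) and the 6 gate genes (grey), with 95% counting intervals, a dashed line at the median of all genes tested and dotted lines at 2-fold. At 3dpi all members lie left of 0, from -4.03 for P2ry12 to -0.60 for P2rx4, and at 14dpi P2rx4 alone lies right of 0.

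At 14dpi, 5 of the 8 members (P2ry12, P2ry13, Entpd1, Adora3 and Gpr34) were at least 2-fold lower than in shamActD and 0 were at least 2-fold higher, beside 16.1% and 4.81% of all genes. Calling each cell on its own by 2 or 3 gate genes also dropped cells with an S100a8 UMI and left 226 and 178 cells at 14dpi. With these cells, 3 and 2 members were lower, with P2ry12 at -1.34 for 3 gate genes. With S100a8 cells kept, the gate of 2 genes held 3570 cells at 14dpi. The count of lower members then stayed within 1.5 times of 5. TMM scaling, which added 0.563 to every log2 ratio, gave 1 member higher. For the gates and TMM scaling the shares over all genes were not computed. The median log2 ratio of the members was -1.61 and that of the gate genes -2.05. Because the 3dpi and 14dpi comparisons share the shamActD library, their likeness is no separate result. Set directly against 3dpi, 14dpi microglia had 4 members at least 2-fold higher (P2ry12, P2rx4, Entpd1 and Gpr34) and 0 at least 2-fold lower, beside 9.4% and 10% of all genes. The largest of these ratios was that of P2rx4, with a log2 ratio of 1.49 (1.40 to 1.58), followed by Entpd1 with 1.36 (1.26 to 1.46), P2ry12 with 1.22 (1.16 to 1.28) and Gpr34 with 1.07 (1.03 to 1.12). P2rx7 was 0.91 (0.78 to 1.03) higher on the log2 scale, P2ry13 0.55, Adora3 0.25 and P2ry6 0.21. Of the 6 gate genes, 3 were at least 2-fold higher too. The median log2 ratio of the members was 0.99 and that of the gate genes 0.98. In UMIs per cell the direction turned for P2ry13, P2ry6, P2rx7 and Adora3, which had fewer UMIs per cell at 14dpi than at 3dpi. For these genes the higher level at 14dpi thus depended on scaling for depth.

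The share of microglia with a UMI of a gene depends on depth, so every cell was thinned to 2000 UMIs and shallower cells were left out (108 in sham, 13 in shamActD, 1 at 3dpi and 116 at 14dpi). After thinning, 84.0% of sham microglia held a P2ry12 UMI, 97.0% of shamActD, 27.4% of 3dpi and 43.0% of 14dpi microglia. Unthinned, these shares were 97.8%, 99.7%, 86.5% and 78.8%. B cells, which should lack P2ry12, gave 4.32%, 7.35%, 2.68% and 2.48% after thinning, from median depths of 4298, 5918, 2535 and 3719 UMIs. Microglia thus exceeded the B cell share in every library. The median thinned microglial cell held 2 P2ry12 UMIs in sham, 4 in shamActD and 0 at 3dpi and 14dpi, while the cell at the ninetieth percentile held 5, 9, 1 and 3.

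For Gpr34 the thinned shares were 73.8%, 87.7%, 36.3% and 59.2% in the order sham, shamActD, 3dpi and 14dpi. P2rx4 shares were 13.7%, 16.6%, 13.1% and 27.9%, with 5.23%, 7.35%, 14.3% and 5.37% of B cells. At 3dpi P2rx4 thus gave no larger share in microglia than in B cells, whose interval was 8.39% to 22.2%. For Adora3 the shares were 11.1%, 22.3%, 4.72% and 6.92%, against at most 1.47% of B cells.

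Within 14dpi the levels of the members also differed between the clusters of microglia. Cluster 1 (1052 cells), led by Tmem119 and Cx3cr1, genes of resting microglia, had 875 CPM of P2ry12. Cluster 4 (499 cells), led by Ccl12 and Cxcl10, genes of the interferon response, had 677 CPM. Tmem119 and Cx3cr1 were among the leading genes of cluster 4 too. Cluster 3 (738 cells), led by Lpl, Spp1 and the chemokine genes Ccl4 and Ccl3, had 85.5 CPM, so that P2ry12 spanned 10.2-fold over the 7 clusters of this library. The cells of cluster 1 had 7651 UMIs in the median and those of cluster 3 had 15094. Cluster 3 also had the lowest summed level of the gate genes, 1787 CPM against 5657 in cluster 1. Its relative marker level for microglia was 0.614, just past the 0.6 needed for the name, and clusters 0 and 18 were next with 0.674. The part of these marker levels in the span of P2ry12 was not tested.

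Entpd1 and Gpr34 also had their highest level in cluster 1, with 234 and 743 CPM. P2ry13 (207 and 206 CPM), P2rx7 (83.5 CPM in both) and P2ry6 (194 and 191 CPM) were nearly alike in clusters 1 and 4, and Adora3 was highest in cluster 4, with 63.9 CPM. P2rx4 had another order. It was highest in cluster 0 (1074 cells, led by Apoc1, Apoe and Apoc4, genes of lipid transport) with 218 CPM, followed by cluster 3 with 166 and cluster 2 with 162, and cluster 1 had 130. All of the 5 clusters of more than 208 cells were above the 91.5 CPM of shamActD microglia for P2rx4 and below the shamActD level for the other 7 members. Cluster 18 (208 cells) was the exception for P2rx4, with 76.6 CPM (60.1 to 96.3). Cluster 27 (45 cells) had 103 CPM of P2rx4 (84.2 to 126). Since the clusters were made from the other genes of the same cells, these levels are a description.

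**Figure D3:**
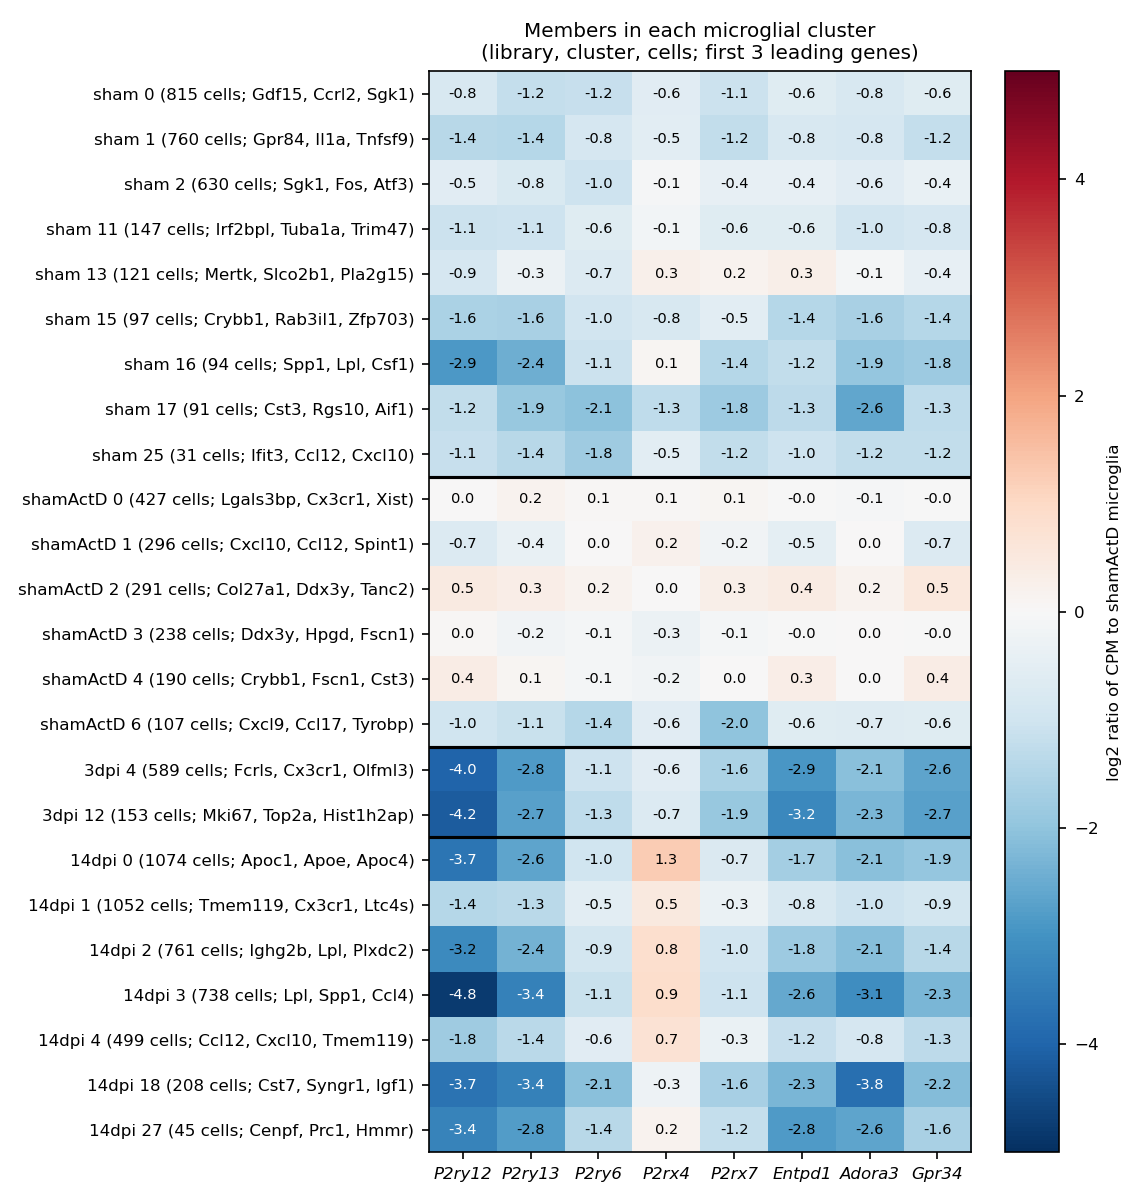
Log2 ratio of the CPM of each member in each microglial cluster (rows, by library, with cell number and leading genes) to the CPM of all shamActD microglia (colour and printed value). P2ry12 runs from -4.78 in cluster 3 of 14dpi to 0.45 in cluster 2 of shamActD, and P2rx4 is above 0 in 6 of the 7 clusters of 14dpi.

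In the sham library, cluster 16 (94 cells, led by Spp1, Lpl and Csf1) had 317 CPM of P2ry12, against 1609 in cluster 2 (630 cells). In shamActD, P2ry12 ranged from 1189 CPM in cluster 6 (107 cells, led by Cxcl9 and Ccl17, with a median of 4262 UMIs) to 3222 in cluster 2 (291 cells). The 2 clusters of 3dpi were alike, with 149 CPM in cluster 4 (589 cells) and 132 in cluster 12 (153 cells, led by Mki67 and Top2a, genes of dividing cells). Over the 8 members the ratio of the higher to the lower cluster at 3dpi was at most 1.24. The relative marker level for microglia was 0.678 in cluster 4 and 0.649 in cluster 12, against 0.858 to 0.97 in the clusters of shamActD. The gate of 2 genes per cell, with S100a8 cells kept, held 545 of the 742 microglia of 3dpi and 118 cells of macrophage clusters. The part of this in the 3dpi ratios was not tested.

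Dividing cells were much more common at 3dpi. After thinning, 33.6% of microglia (249 cells) held at least 2 cycling genes at 3dpi, 1.15% (49 cells) at 14dpi and 2 cells in each uninjured library. At 3dpi cycling microglia had log2 ratios to the other microglia between -0.35 (Adora3, -0.64 to -0.07, and Entpd1, -0.55 to -0.15) and 0.05 (P2ry13, -0.11 to 0.21). At 14dpi Entpd1 was lower by more in the few cycling cells, with a log2 ratio of -1.30 (-1.70 to -0.93), and P2ry12 was at -0.61 (-0.80 to -0.43).

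Cells of both sexes were in every library, and were told apart by Xist and Y-linked genes. Males made up 44.3% of the sexed microglia in sham, 46.3% in shamActD, 76.8% at 3dpi and 47.2% at 14dpi. In shamActD, male microglia had higher levels than female microglia of P2ry12 (2797 against 2024 CPM, log2 ratio 0.47), Entpd1 (485 against 341 CPM, 0.51) and Gpr34 (1683 against 1213 CPM, 0.47). The standard sham did not share this for P2ry12 (-0.05, -0.09 to -0.01) or Gpr34 (-0.09, -0.14 to -0.04), and for Entpd1 the ratio was 0.16 (0.08 to 0.25). P2rx4 was lower in male microglia of shamActD (-0.29, -0.46 to -0.12) and 14dpi (-0.25, -0.32 to -0.18) and higher at 3dpi (0.31, 0.06 to 0.56). With male cells alone or female cells alone, 7 members stayed at least 2-fold lower at 3dpi and 5 at 14dpi. The shares over all genes were not computed for either sex alone.

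Between the uninjured libraries, 2 members (P2ry12 and P2ry13) were at least 2-fold lower in sham than in shamActD and 0 were at least 2-fold higher, beside 18.1% and 4.89% of all genes. The log2 ratio was -1.01 (-1.03 to -0.99) for P2ry12 and -1.20 (-1.26 to -1.15) for P2ry13, or -0.48 and -0.67 relative to the median gene. P2ry6 was just short of 2-fold (-0.99, -1.06 to -0.93). The microglia of sham include cluster 16 (94 cells, led by Spp1 and Lpl), with P2ry12 at 317 CPM. In shamActD a cluster of 71 cells with Spp1 and Lpl among its leading genes was left without a class, since mast cell genes led it. The part of this difference in the P2ry12 ratio, which is just past 2-fold, was not tested. The smallest ratio was that of P2rx4 (-0.36, -0.47 to -0.26), which was 0.17 by TMM scaling and 0.17 relative to the median gene, so that its direction turned with the scaling. By TMM scaling 0 members were past 2-fold, with male cells only 4 were lower, and with female cells only 1 was. For these settings the shares over all genes were not computed. Dissociation with ActD and the software version in the table header, 3.0.1 for sham and 3.1.0 for shamActD, cannot be told apart here, nor can dissociation and the mice used. The header also read 3.0.1 for 3dpi and 3.1.0 for 14dpi. In the comparisons of 3dpi with shamActD and with 14dpi, software version and time after injury thus cannot be told apart either.

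Across cell classes, some members were largely microglial and others were shared with macrophages. In sham, 92.2% of all P2ry12 UMIs, 91.6% of P2ry13, 92.2% of Gpr34 and 89.8% of Adora3 UMIs were in microglia, which were 54.6% of cells. At 3dpi, when microglia were 8.89% of cells, they still held 62.7% of P2ry12, 57.5% of P2ry13, 82.1% of Gpr34 and 57.3% of Adora3 UMIs. For P2rx4 and P2ry6 the shares at 3dpi were 15.7% and 22.1%. A share of UMIs follows the number and the depth of microglia as well as their level. Of all UMIs of the cells kept, microglia held 20934247 of 48469341 in sham and 18166120 of 94172852 at 3dpi. The share of cells is thus not a like reference for these shares of UMIs, and least so for P2rx4 and P2ry6 at 3dpi.

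**Figure D4:**
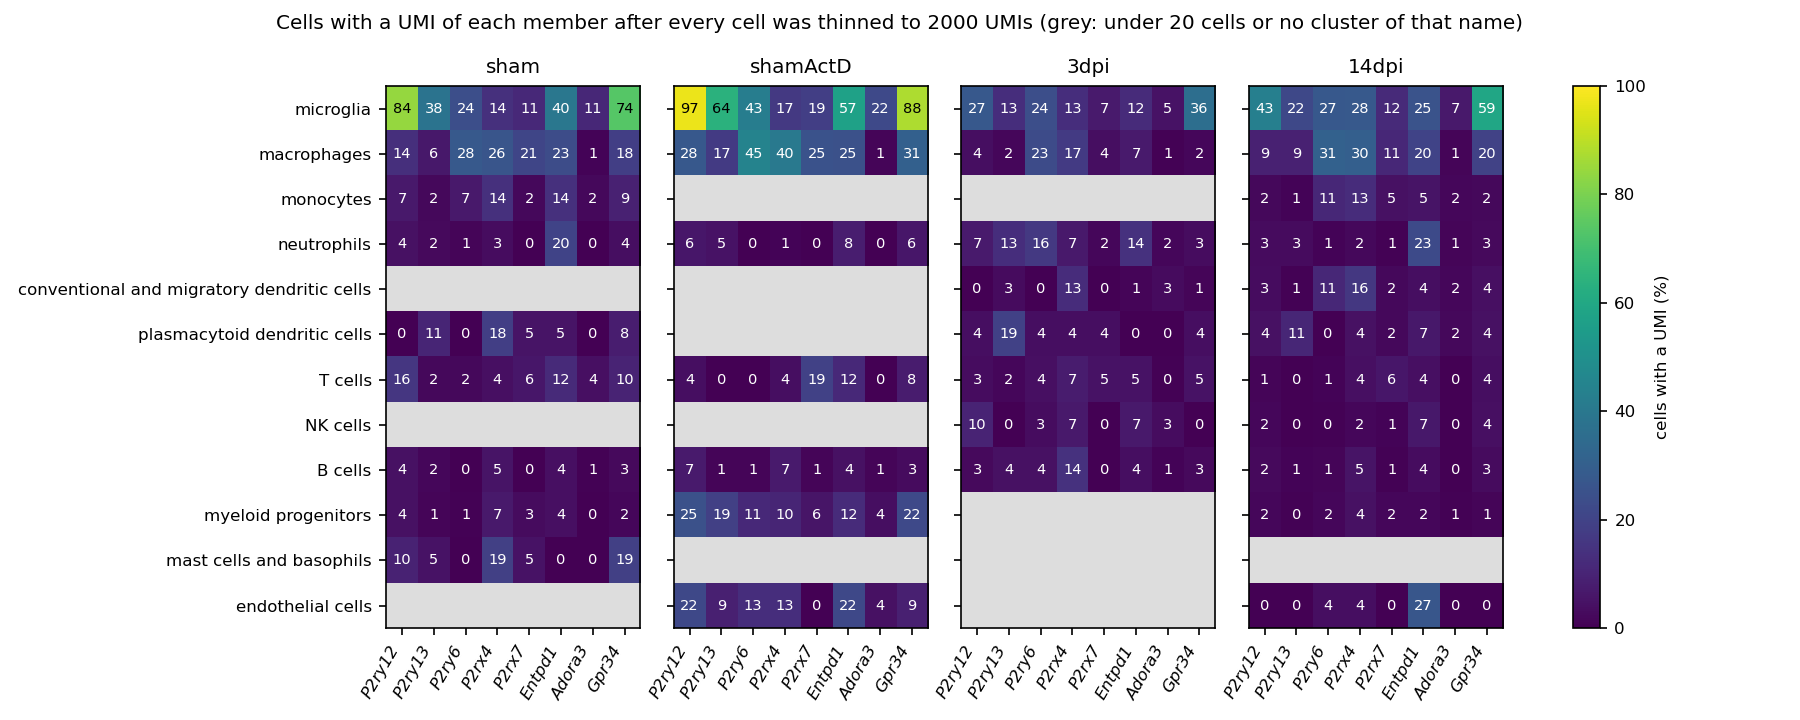
Percentage of cells with a UMI of each member (columns) in each class (rows) and library (panels), printed in each field. Every cell was thinned to 2000 UMIs. Grey marks a class under 20 cells or without a cluster of that name. Cells of unnamed clusters, 1798 of them at 3dpi, are not shown, so grey does not mean that a cell type was absent. Microglia lead for P2ry12 in all 4 libraries, with 97% in shamActD and 27% at 3dpi. P2rx4 has a higher share in macrophages than in microglia in each panel, with overlapping intervals at 14dpi.

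Macrophages, the clusters named from border or injury macrophage markers, were compared with microglia within each library. Their number was 131 in sham, 136 in shamActD, 3472 at 3dpi and 423 at 14dpi. In sham, 5 members (P2ry12, P2ry13, Entpd1, Adora3 and Gpr34) were at least 2-fold higher in microglia, beside 13.8% of all genes. The same 5 were counted in shamActD, beside 13.9%. At 3dpi and at 14dpi 4 were counted, without Entpd1, beside 10% and 5.87%. When the libraries were clustered together, 0 members were counted at 14dpi, and the share over all genes was not computed. The gate genes were present in the macrophage clusters too, for example Tmem119 at 20.2, 90.5, 38.0 and 87.9 CPM in sham, shamActD, 3dpi and 14dpi.

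P2ry12 had 66.1 CPM in macrophages of sham, 209 in shamActD, 19.1 at 3dpi and 79.0 at 14dpi. The log2 ratio of microglia over macrophages was 4.14 (3.77 to 4.54) in sham, 3.49 (3.34 to 3.66) in shamActD, 2.91 (2.81 to 3.02) at 3dpi and 2.09 (1.93 to 2.25) at 14dpi. Gpr34 had its largest ratio at 3dpi, 4.56 (4.42 to 4.69), where macrophages held 9.48 CPM. Adora3 was low in macrophages, with 2.24 CPM in sham, 5.81 in shamActD, 3.62 at 3dpi and 7 at 14dpi (2, 9, 191 and 29 UMIs), and its ratio in sham was 4.84 with an interval from 2.99 to 7.89.

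P2ry6 was at similar levels in both classes. Macrophages had 180.3 CPM in sham, 295 in shamActD, 121 at 3dpi and 156 at 14dpi, and the log2 ratio of microglia over macrophages was -0.34 (-0.57 to -0.10), -0.06 (-0.20 to 0.08), 0.12 (0.05 to 0.19) and -0.03 (-0.15 to 0.08). By TMM scaling the ratio was -0.13 at 3dpi and 0.11 at 14dpi, so neither direction held under both scalings. The median gene lay at 0.16, 0.28, 0.17 and -0.06 in these comparisons, and relative to it P2ry6 was at -0.05 at 3dpi and 0.02 at 14dpi. P2rx4 was higher in macrophages in every library, with 168, 215, 87.1 and 205 CPM, and the ratio of microglia over macrophages went from -1.24 (-1.48 to -0.99) in sham and -1.23 (-1.41 to -1.06) in shamActD to -0.53 (-0.63 to -0.44) at 3dpi and -0.28 (-0.38 to -0.18) at 14dpi. At 14dpi P2rx4 in microglia was thus nearest to the macrophage level. With libraries merged the 14dpi ratio was 0.23, so its direction there depended on the clustering. P2rx7 changed sides. It was lower in microglia than in macrophages in sham (-1.79, -2.02 to -1.55) and shamActD (-0.70, -0.89 to -0.51), higher at 3dpi (0.77, 0.63 to 0.92) and level at 14dpi (0.01, -0.17 to 0.20), while macrophages went from 193 and 171 CPM to 19.7 and 62.5. Different clusters hold the macrophages of uninjured and injured cords. The single clusters of sham and shamActD were led by Pf4, Mrc1 and antigen-presentation or chemokine genes. Among the genes leading the 5 clusters of 3dpi were Gpnmb, Fabp5, Arg1 and Ccl24. Pf4 was also a leading gene of clusters 2, 3 and 9 of 3dpi, and Mrc1 of cluster 3. Cluster 16 of 3dpi was led by Rsad2 and Ifit3, genes of the interferon response.

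Among the other classes, neutrophils had 101 CPM of Entpd1 in sham, 43.0 in shamActD, 92.3 at 3dpi and 102 at 14dpi. Macrophages had 104, 122, 36.7 and 102 CPM. In shamActD, myeloid progenitors (45.9 CPM) and endothelial cells (131 CPM) were above neutrophils too. At 3dpi the neutrophil level was above the 51.1 CPM of microglia. After thinning, 14.4% of these neutrophils (12.4% to 16.5%) held a UMI, against 12.1% of microglia (9.88% to 14.7%) and 3.57% of B cells. At 14dpi the 27 endothelial cells had 154 CPM (112 to 206) of Entpd1, an interval that holds the 131 CPM of microglia. Neutrophils at 3dpi also held P2ry6 at 102 CPM and P2ry13 at 75.1 CPM, against 5.85 and 12.5 CPM at 14dpi. After thinning, 16.4% of 3dpi neutrophils held P2ry6 and 13% held P2ry13, against 4.46% of B cells for either gene, and 379 of the 1542 neutrophils were too shallow to be thinned. The same neutrophils held the gate genes Olfml3 in 12.4% and Sparc in 13.6% of thinned cells, and the part of RNA from other cells in the member shares was not tested. P2rx7 reached 114 CPM (77.7 to 162) in the 27 T cells of shamActD, beside 105 CPM in microglia, and 41.4 CPM in the 759 T cells of 14dpi. P2ry13 was at 75.7 CPM (40.3 to 129) in the 26 plasmacytoid dendritic cells of 3dpi, where microglia had 75.8. The 54 T cells of sham had 249 CPM of P2ry12 and 195 of Gpr34, and these were the second highest levels of both genes in that library. The gate genes were present in these T cells too, with Sparc at 650.2 CPM and Tmem119 at 185 CPM, and their part in the result was not tested. In shamActD the second highest P2ry12 level was that of 25 endothelial cells, at 403 CPM. These cells also held the gate genes Tmem119 at 172 CPM and Olfml3 at 231 CPM, whose part in the result was not tested, and the 27 endothelial cells of 14dpi had 0 P2ry12 UMIs.

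Other genes of the pathway were described as 6 lists of 49 genes in all, among them receptors, enzymes, transporters and partners of the members. Of these, 21 had at least 200 UMIs for the comparison of 3dpi with shamActD, of which 6 were at least 2-fold lower and 4 higher, with a median log2 ratio of -0.47. Over all genes 32.0% were lower and 11.4% higher, with a median of -0.53, so the share of lower genes was near that of all genes. The lower genes were the receptor gene P2ry10b (-1.81), the ectoenzyme gene Enpp4 (-2.81), the nucleoside transporter genes Slc29a1 (just past 2-fold) and Slc29a3 (-2.29), the vesicular nucleotide transporter gene Slc17a9 (-1.80) and Kcnk13 (-1.07), a potassium channel gene of microglia. The higher genes were Enpp1 (2.48), an ectoenzyme that cleaves ATP, Adk (1.10), the adenosine kinase, Cd38 (7.37, from 2 UMIs in shamActD, interval 5.51 to 10.4) and Il1b (6.15), the cytokine released after P2X7 opening. Il1b stood at 501 CPM in sham, 2.57 in shamActD, 183 at 3dpi and 38.2 at 14dpi, so its level also differed between the uninjured libraries.

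At 14dpi, 22 of the 49 were tested against shamActD, of which 4 were lower (P2ry10b at -2.29, Pnp at -1.48, Slc17a9 at -1.23 and Gsdmd at -1.01) and 3 higher (Enpp1 at 1.32, Cd38 at 5.25 with an interval from 3.38 to 8.31, and Il1b at 3.89), beside 16.1% and 4.81% of all genes. Pnp codes for a phosphorylase that breaks down inosine and Gsdmd for the pore protein of pyroptosis. From 3dpi to 14dpi, 5 of 24 were lower (Enpp1, Ada, Adk, Cd38 and Il1b, from -1.16 to -2.88) and 2 higher (Enpp4 at 2.06 and Slc29a3 at 1.34), beside 10% and 9.4% of all genes. In sham against shamActD, 5 of 20 were lower (P2ry10b, Entpd6, Entpd7, Slc17a9 and Pycard, from -1.08 to -1.47) and 2 higher (Nlrp3 at 2.68 and Il1b at 7.61), both of them genes of the inflammasome route, beside 18.1% and 4.89% of all genes. The named genes of these lists are given as values, and nothing particular to the lists is read from the counts. By list, 1 of 10 other P2Y receptor genes, 10 of 19 enzyme and transporter genes, 1 of 3 ATP release genes and 9 of 9 partner and effector genes were tested at 3dpi. None of the other P2X receptor genes had 200 UMIs in microglia of 3dpi or 14dpi with shamActD, and none of the other adenosine receptor genes did.

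The genes most like each member were found by Pearson correlation of log2(CPM + 1) over 26 sums, 1 per class and library with at least 50 cells, among 11945 genes. These sums share libraries and only 4 of them are of microglia, so the values describe the pattern over classes. P2ry12 was most like Nav3 (r = 0.97), Csmd3 and Mlxipl, and P2ry13 was most like P2ry12 (0.91). Gpr34 was nearest to Nbea (0.97), Mlxipl and Ctsf, and Adora3 to 2610528A11Rik (0.87), F11r and Kcnk6. P2ry6 was nearest to Stard9 (0.97), Fcgr1 and Rab3il1, P2rx4 to Cd86 (0.90), Scpep1 and Npc2, P2rx7 to Slc9a9 (0.90), Rgs10 and Selenop, and Entpd1 to Zfhx3 (0.92), Lpcat2 and Retreg1. Between members, P2ry12 and Gpr34 had r = 0.95 and P2rx4 and Adora3 r = 0.39, the lowest pair.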

How the data were processed

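UMI counts per gene and cell barcode of 4 libraries, as deposited by the authors, were used without normalization. The labels name Cell Ranger and mm10, and the table headers give software version 3.0.1 (sham, 3dpi) and 3.1.0 (shamActD, 14dpi). The deposited counts were not filtered as in the study. Barcodes with fewer than 600 genes or more than 10% mitochondrial UMIs were dropped, cells with Itgam and a lymphoid marker were removed, and doublets were removed at 0.8% per 1000 cells. The cells kept held 48469341, 25694535, 94172852 and 96573349 UMIs (sham, shamActD, 3dpi, 14dpi), from 60412094, 27447471, 125270696 and 129935880 deposited.

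Each library was clustered alone (2000 variable genes, 30 components, 20 neighbours, leidenalg 0.10.2 at resolution 1.0), without the members and pathway genes. Naming a cluster took 3 or more markers seen in 25% of the cluster, a relative marker level of 0.6 or more, and a look at the 10 leading genes. Clusters went unnamed if a second class reached 0.75, if markers of another class led, if they held under 20 cells, or if they were shallow (a median below the library's median divided by 3) with no own marker leading. These thresholds were set after the clusters were seen, and the members and lists were chosen with earlier results of these data known. Unnamed cells numbered 711, 129, 1798 and 138.

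Class totals of UMIs per library were turned into CPM. Intervals are exact Poisson for a sum, exact conditional for a ratio and Clopper-Pearson for a share, all 95% and covering counting error only. TMM factors came from edgeR 4.0.16, used for scaling alone. Named genes were all members, and pathway genes with at least 200 UMIs in a pair and a 2-fold difference. The ratio intervals were checked on simulated sums drawn by the Poisson model that they assume. That check covers the calculation and not the variation between cells or animals. Alternatives were other filters, doublet handling, gates, resolutions, merged libraries, TMM, equal weight per cell and leaving out cycling cells, and 3 chosen after seeing the data. Some genes are not reported here.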

Additional observations from a re-analysis of the deposited data

Results flagged for a closer look

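P2rx4 in microglia went opposite ways at the 2 times after injury, with a log2 ratio to shamActD of -0.60 at 3dpi and 0.89 at 14dpi, and the counting intervals lay on opposite sides of 0. Each time is 1 library, so the difference was not tested between animals. Relative to the median of all genes the 3dpi value was -0.07, so that the opposite direction at 3dpi holds for scaling by total UMIs. P2rx7 also changed sides between libraries that share the ActD dissociation, since its log2 ratio of microglia over macrophages was -0.70 in shamActD and 0.77 at 3dpi, and this difference was not tested either. Macrophages of shamActD were 136 cells and those of 3dpi were 3472 cells. Groups here hold 1 library, so no library could be set against others of its group.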

How the results depend on the processing

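Under 15 alternatives, 3 of them chosen after seeing the data (a gate of 2 genes per cell with S100a8 cells kept, male cells only, female cells only), 914 of 935 member ratios kept the sign of the reported value and 0 called ratios reversed. The exceptions in sign were P2ry6, P2rx4 (at 14dpi) and P2rx7 (at 14dpi) in microglia over macrophages and P2rx4 in sham over shamActD. Of 175 counts of members past 2-fold, 164 stayed within 1.5 times and 11 moved. A count within 1.5 times can still differ from the reported count. For 3dpi over shamActD, P2ry6 (-0.63 by TMM scaling) and P2rx7 (-0.81 with 3 gate genes per cell) fell short of 2-fold in those settings. The share over all genes was computed for the reported setting alone, so the counts of an alternative have no such share beside them. For 14dpi over shamActD, TMM scaling gave 1 member higher (P2rx4) in place of 0, and calling each cell on its own by 2 or 3 gate genes gave 3 and 2 members lower in place of 5. For sham over shamActD the 2 members lower became 0 by TMM scaling, 1 with each cell called by 2 or by 3 gate genes, 1 with libraries merged, 1 at resolution 2.0, 4 with male cells only and 1 with female cells only. With libraries merged, 0 members in place of 4 were 2-fold higher in microglia than in macrophages at 14dpi. The gates of 2 or 3 genes per cell left out cells with an S100a8 UMI. With S100a8 cells kept, the gate of 2 genes moved 0 counts, against 2 with them left out. At 14dpi that gate held 3570 cells with S100a8 cells kept and 226 without them. The cause of the moves in these counts was not tested. The merged clustering was not run for comparisons with 3dpi, since under 20 microglia of 3dpi were named there. The log2 ratio of P2ry12 to shamActD ranged from -4.45 to -3.24 at 3dpi and from -2.99 to -1.34 at 14dpi, and that of P2rx4 from -0.93 to -0.12 and from 0.62 to 1.45.

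No paired analysis was possible because each group is 1 library. Depth limits the classes of few cells, such as the 27 T cells of shamActD.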

Other observations

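P2ry14, which codes for a receptor for UDP-glucose and is the neighbour of P2ry13 and P2ry12 inside Med12l, did not share their levels. It had 9 UMIs in sham microglia, 10 in shamActD, 40 at 3dpi and 170 at 14dpi, or 0.430, 0.628, 2.20 and 3.27 CPM, too few UMIs for the count rule used here in the comparisons with shamActD.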
